A study of Mus musculus with 8 samples.

Results

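The 10 genes described here are markers and effectors of tissue macrophages: Cx3cr1, Csf1r, Cd68, Cd163, Adgre1, Mrc1, Lyve1, Aif1, C1qa and C1qb. They were taken from a list of cochlear macrophage genes and matched by symbol to array features that the platform annotation links to exactly 1 gene. All 10 were measured, each by 1 feature, among 22180 genes on the array. Expression was measured in the cochlea of 4 miR-183/96 KO mice, which lack the microRNA genes Mir183 and Mir96 (here knockout), and of 4 controls, which the study's design text calls wild type, all at postnatal day 16. The cochlea was taken whole, inside its bony capsule, and each array stands for 1 animal, whose left and right cochleae went into 1 RNA sample. Values are log2 expression values from Affymetrix Mouse Gene 2.0 ST arrays, normalized by the authors with RMA (background correction, quantile normalization and a summary over the probes of a feature). All differences are knockout minus control on the log2 scale. The sources used here do not give the strain, the sex of the animals or how the allele was made.

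Macrophages are resident phagocytes that clear debris and dying cells, present antigen and release complement and growth factors. In the cochlea they lie among the spiral ganglion neurons, in the spiral ligament, along the vessels of the stria vascularis and beneath the sensory epithelium, and they are known to gather after hair cell injury and to be remodelled around hearing onset. They depend on signals through the colony-stimulating factor receptor, and the fractalkine receptor helps position them near neurons. The 10 genes are not exclusive to macrophages: monocytes, osteoclasts, some lymphocytes and lymphatic vessels express some of them.

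The deleted microRNAs are shown because they define the groups. The guide strands of both genes, from the RefSeq table of build GRCm38.p6 (minus strand, chr6:30169506-30169528 and chr6:30169711-30169732), are written with the seed, bases 2 to 8, in capitals.

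mmu-miR-96-5p: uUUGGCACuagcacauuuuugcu
mmu-miR-183-5p: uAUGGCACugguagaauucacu

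The 2 seeds are identical at 6 of 7 positions. The Mir96 feature read 4.01 to 4.31 in the 4 knockout arrays and 5.26 to 6.23 in the 4 control arrays, a difference of -1.48 (SE 0.17; limma adjusted p = 0.00932). Mir183 differed by -0.33 (adjusted p = 0.398) and Mir182, a neighbour in the same cluster, by 0.35 (adjusted p = 0.364). The Mir183 feature was dim, at 1.82 in knockout replicate 3 and 2.38 to 2.40 in the other knockout arrays. A feature this dim may not show a deletion. Over all 23521 features tested, 3 were called lower and 0 higher at a limma p of 0.05 after Benjamini-Hochberg adjustment. Signal range, the SD of the log2 values of an array over the 23521 features tested, was 1.40 ± 0.03 in knockout and 1.49 ± 0.06 in control arrays (SD, n = 4; two-sided exact permutation p = 0.0571). Differences followed the mean level of a feature, with a median of 0.13 in the lowest decile by mean level and -0.21 in the highest. The 12 cochlear cell markers checked (such as Coch, Otos, Myo7a and Gjb2) were all measured, with mean levels from 4.54 to 10.5. No detection call was used, so a dim feature cannot be separated from background.

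None of the 10 macrophage genes passed the adjusted threshold. The share called was 0.0128% over all features, all of it lower in knockout. Of the 10, 5 had positive and 5 negative differences, beside 52.4% positive and 47.6% negative over all features. They ran from -0.22 in Cd68 to 0.34 in Cx3cr1, with a median of -0.025 (0.031 after cyclic loess normalization and 0.11 with signal range as a covariate), beside 0.014 over all features tested. At an unadjusted limma p under 0.05 there was 1 of 10, Cx3cr1, higher in knockout, where 14.3% of all features passed, 7.04% higher and 7.25% lower. The 2 groups did not overlap in 1 of 10, again Cx3cr1, against 5.96% of all features, 3.3% higher and 2.65% lower. With 10 genes, a count of 1 is near the background in both cases, and 0 macrophage genes passed the adjusted threshold in any of the 21 alternative settings tried. In whole-tissue RNA, fewer cells of a type and less RNA per cell cannot be told apart.

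**Figure D1:**
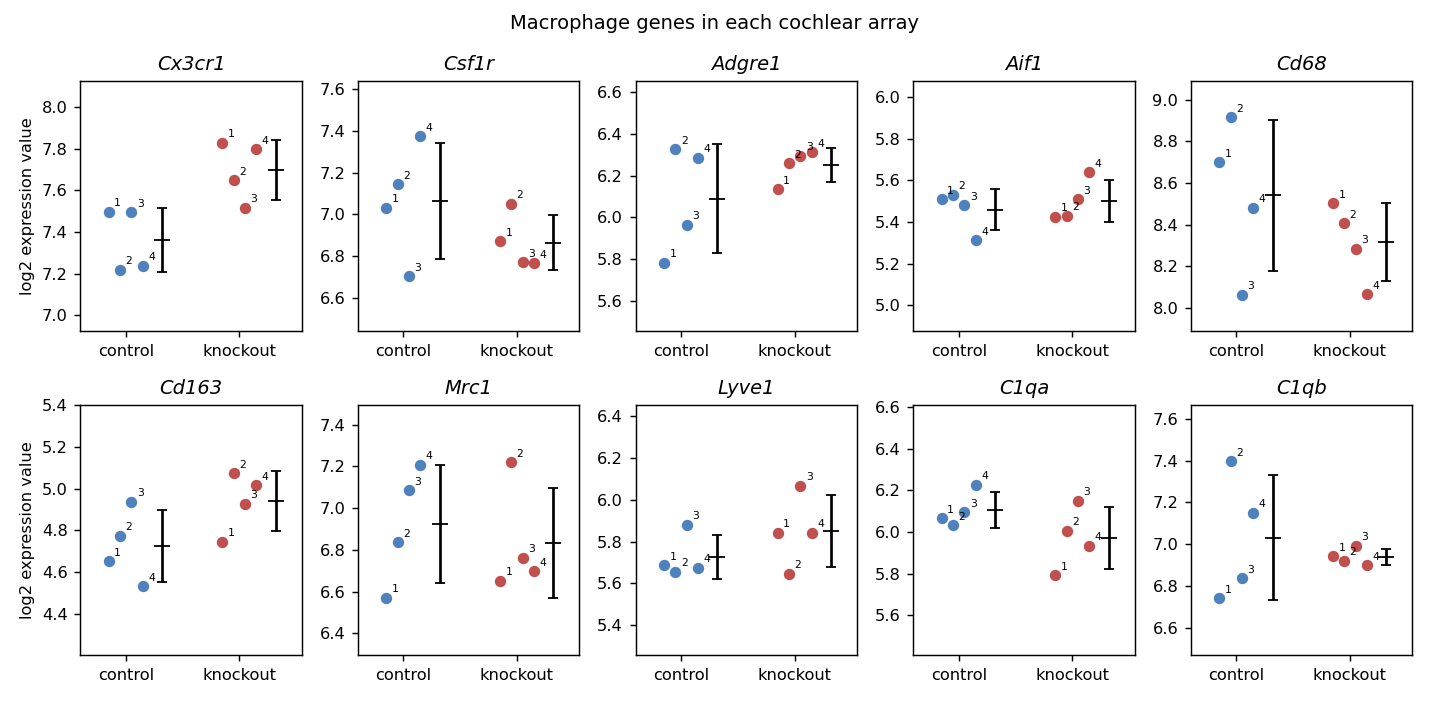
Log2 expression values (vertical axes, each spanning 1.2 units) of the 10 macrophage genes in control (blue) and knockout (red) arrays; numbers are replicate numbers, and black bars are means with SD (n = 4). The 4 knockout values of Cx3cr1, 7.52 to 7.83, all lie above the 4 control values, 7.22 to 7.50, while the groups overlap in the other genes.

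Among the surface receptors, Cx3cr1 had the highest difference of the 10. It encodes the receptor for fractalkine and is carried by microglia, monocytes and many tissue macrophages. Cx3cr1 read 7.83, 7.65, 7.52 and 7.80 in knockout replicates 1 to 4 and 7.50, 7.22, 7.49 and 7.24 in control replicates 1 to 4. All 4 knockout values were above all 4 control values, although knockout replicate 3 lay close to control replicates 1 and 3. The mean was 7.70 ± 0.14 in knockout and 7.36 ± 0.15 in control (SD, n = 4). The difference was 0.34 (SE 0.11; 95% interval 0.09 to 0.58), or 1.26-fold, with an adjusted p of 0.301 by limma. It was positive in all 21 alternatives, from 0.16 with signal range as a covariate to 0.49 after cyclic loess normalization, with adjusted p-values from 0.0851 to 0.953. Its ligand gene Cx3cl1 (fractalkine), which neurons and endothelium express, read 5.71 to 5.87 in knockout and 5.76 to 6.04 in control arrays and differed by -0.13 (adjusted p = 0.566).

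Cell types other than macrophages that carry Cx3cr1 were read from marker lists. The monocyte list, with 7 of 8 genes measured, had a summed level (log2 of the sum of the linear values) of 10.5 to 10.9 in knockout and 10.4 to 11.1 in control arrays (exact permutation p = 0.943). The T and NK cell list, 7 of 7 measured, had 7.97 to 8.14 and 7.86 to 8.07 (exact permutation p = 0.457). Both lists overlapped between genotypes, and their part in the Cx3cr1 values was not tested. The monocyte sum is weighted to the brightest gene of its list, Chil3 (mean level 9.53), and says little about dimmer ones such as Ccr2 (5.88). For microglia, cells of the brain that share Cx3cr1, 7 of 8 genes were measured and the summed level was 8.85 to 8.95 in knockout and 8.84 to 9.01 in control arrays. None of those 7 was called, with Fcrls at 0.15, Gpr34 at 0.13 and Olfml3 at -0.10 (the last 2 at -0.0034 and 0.014 after cyclic loess). The microglia sum is weighted to the brightest genes of its list, Tmem119 (mean level 7.07) and Olfml3 (6.87), so it says little about the dimmer ones.

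Csf1r encodes the receptor for the growth factors CSF1 and IL-34, on which survival of most tissue macrophages depends. It read 6.87, 7.05, 6.77 and 6.77 in knockout replicates 1 to 4 and 7.03, 7.15, 6.70 and 7.37 in control replicates 1 to 4. Control replicate 3 was the lowest and control replicate 4 the highest of the 8 arrays, so the control range enclosed the knockout range. The difference was -0.20 (SE 0.14; 95% interval -0.49 to 0.10; limma adjusted p = 0.493). Leaving out control replicate 4 gave -0.096, leaving out control replicate 3 gave -0.32, and signal range as a covariate gave 0.22. Csf1, a ligand gene, read 5.99 to 6.28 in knockout and 6.05 to 6.65 in control arrays, a difference of -0.19 (adjusted p = 0.496). The other ligand gene, Il34, differed by 0.035 (-0.023 after cyclic loess; adjusted p = 0.905), with values from 5.30 to 5.67 in knockout and 5.24 to 5.59 in control arrays.

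Adgre1 encodes F4/80, an adhesion receptor used to stain mouse macrophages. Its values were 6.13, 6.26, 6.29 and 6.31 in knockout replicates 1 to 4 and 5.78, 6.33, 5.96 and 6.29 in control replicates 1 to 4. The knockout arrays lay close together, while control replicates 1 and 3 were below all of them and control replicate 2 above. The SD was 0.08 in knockout and 0.26 in control, and the difference was 0.16 (SE 0.13; 95% interval -0.12 to 0.44; limma adjusted p = 0.558). Without control replicate 1 it was 0.058. Aif1 encodes IBA1, a calcium-binding protein of ruffling macrophages and microglia. Aif1 was the steadiest of the 10 over all arrays, spanning 0.32, with 5.43, 5.43, 5.51 and 5.64 in knockout and 5.51, 5.53, 5.48 and 5.31 in control replicates 1 to 4. It differed by 0.042 (SE 0.11; 95% interval -0.19 to 0.28; limma adjusted p = 0.868), and by -0.015 after cyclic loess.

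The scavenger and uptake receptors did not move together. Cd68, a lysosomal membrane glycoprotein also abundant in osteoclasts, varied most of the 10, spanning 0.85 over the 8 arrays. Its values were 8.50, 8.41, 8.29 and 8.07 in knockout and 8.70, 8.91, 8.06 and 8.48 in control replicates 1 to 4. The lowest and the highest value were both control arrays, replicates 3 and 2. The difference was -0.22 (SE 0.16; 95% interval -0.57 to 0.13; limma adjusted p = 0.513), -0.38 without control replicate 3, -0.099 without control replicate 2 and 0.14 with signal range as a covariate.

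Osteoclasts, bone-resorbing cells of the macrophage lineage that also carry Csf1r and Cd68, can be present in a cochlea taken with its capsule. All 9 of their markers were measured, and 0 were called by limma, with 2 lower and 0 higher at an unadjusted p under 0.05. Their summed level was 11.2 to 11.7 in knockout and 11.4 to 11.8 in control arrays, a difference of -0.18 (exact permutation p = 0.257, adjusted p = 0.60 over 21 lists). Among them, the osteoclast receptor gene Oscar was at -0.34 (adjusted p = 0.301), Atp6v0d2, a proton pump subunit, at -0.34 (adjusted p = 0.376) and Nfatc1, a transcription factor, at -0.26 (adjusted p = 0.329). The list median was -0.19, and over the 21 alternatives it ran from -0.27 without control replicate 3 to 0.038 with signal range as a covariate. Cd68, Csf1r and this list all had negative differences on the deposited values and positive ones with that covariate. Negative differences were common at these levels. In decile 10 by mean level, that of Cd68, the median difference was -0.21 and 12.3% of features were positive. In decile 9, that of Csf1r, these were -0.16 and 17.6%. The part of osteoclasts in the Cd68 and Csf1r values was not tested.

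Cd163, the receptor that takes up haptoglobin-haemoglobin complexes, read 4.75, 5.07, 4.93 and 5.02 in knockout and 4.65, 4.77, 4.94 and 4.53 in control replicates 1 to 4. Knockout replicates 2 and 4 were above every control array, while knockout replicates 1 and 3 lay within the control range. The difference was 0.22 (SE 0.13; 95% interval -0.06 to 0.49; limma adjusted p = 0.431), 0.29 without control replicate 3 and 0.055 with signal range as a covariate. Hp, the haptoglobin gene, was at -0.10 (adjusted p = 0.756; 0.059 after cyclic loess) and Hmox1, the haem-degrading enzyme downstream of this uptake, at 0.058 (adjusted p = 0.846; -0.060 without control replicate 3).

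Mrc1 encodes the mannose receptor CD206 of perivascular and tissue-repair macrophages. It read 6.65, 7.22, 6.76 and 6.70 in knockout and 6.57, 6.84, 7.09 and 7.21 in control replicates 1 to 4. One knockout array, replicate 2, had the highest value of all 8 and the other 3 lay within the control range. The difference was -0.092 (SE 0.16; 95% interval -0.43 to 0.25; limma adjusted p = 0.790), -0.22 without knockout replicate 2 and 0.027 after cyclic loess. Lyve1, a hyaluronan receptor of perivascular macrophages and lymphatic vessels, read 5.84, 5.65, 6.07 and 5.84 in knockout and 5.69, 5.66, 5.88 and 5.67 in control replicates 1 to 4. Knockout replicate 3 was the highest and knockout replicate 2 the lowest of the 8 arrays. Its difference was 0.13 (SE 0.12; 95% interval -0.13 to 0.38; limma adjusted p = 0.609), 0.053 without knockout replicate 3, 0.19 without knockout replicate 2, and -0.056 with signal range as a covariate.

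Lymphatic endothelium shares Lyve1 and Mrc1 with macrophages. Of its 6 other markers 5 were measured, with a summed level of 8.39 to 8.54 in knockout and 8.54 to 8.66 in control arrays (exact permutation p = 0.0571, adjusted p = 0.400 over 21 lists). None was called. Reln was at -0.32, Prox1, the transcription factor that specifies lymphatic vessels, at -0.21 and Flt4, a growth factor receptor, at -0.100. The list median was -0.100 while Lyve1 was at 0.13, but with signal range as a covariate both were negative, at -0.044 and -0.056. The part of lymphatic vessels in Lyve1 and Mrc1 was not tested.

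C1qa and C1qb encode subunits of complement C1q, the recognition molecule that starts the classical pathway and that tags synapses and debris for uptake. Together with C1qc they form a run of 3 consecutive genes on chromosome 4 in the RefSeq table. C1qa read 5.79, 6.01, 6.15 and 5.93 in knockout and 6.06, 6.03, 6.10 and 6.23 in control replicates 1 to 4. Knockout replicates 1, 2 and 4 were below all control arrays and knockout replicate 3 was within their range. The difference was -0.13 (SE 0.11; 95% interval -0.37 to 0.10; limma adjusted p = 0.562), -0.075 without knockout replicate 1, and negative in all 21 alternatives.

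C1qb read 6.94, 6.92, 6.99 and 6.90 in knockout and 6.74, 7.40, 6.84 and 7.15 in control replicates 1 to 4. The knockout arrays had the smallest spread of any of the 10 genes (SD 0.04) and lay inside the control range (SD 0.30). Its difference was -0.092 (SE 0.14; 95% interval -0.38 to 0.20; limma adjusted p = 0.754), 0.030 without control replicate 2 and 0.035 after cyclic loess. C1qc read 6.72, 6.90, 7.01 and 6.96 in knockout and 7.04, 6.98, 6.93 and 7.01 in control replicates 1 to 4. Its groups overlapped, with a difference of -0.095 (SE 0.10; 95% interval -0.32 to 0.13; limma adjusted p = 0.661) and 0.029 after cyclic loess. On the deposited values all 3 subunit genes had small negative differences (C1qb and C1qc turned positive after cyclic loess). None was called by limma, and each 95% interval spanned both signs. Positive differences made up 30.9%, 12.3% and 17.6% of features in the deciles by mean level of C1qa, C1qb and C1qc. Beside the median of its decile, C1qb was 0.11 and C1qc 0.070 above, and C1qa 0.043 below.

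**Figure D2:**
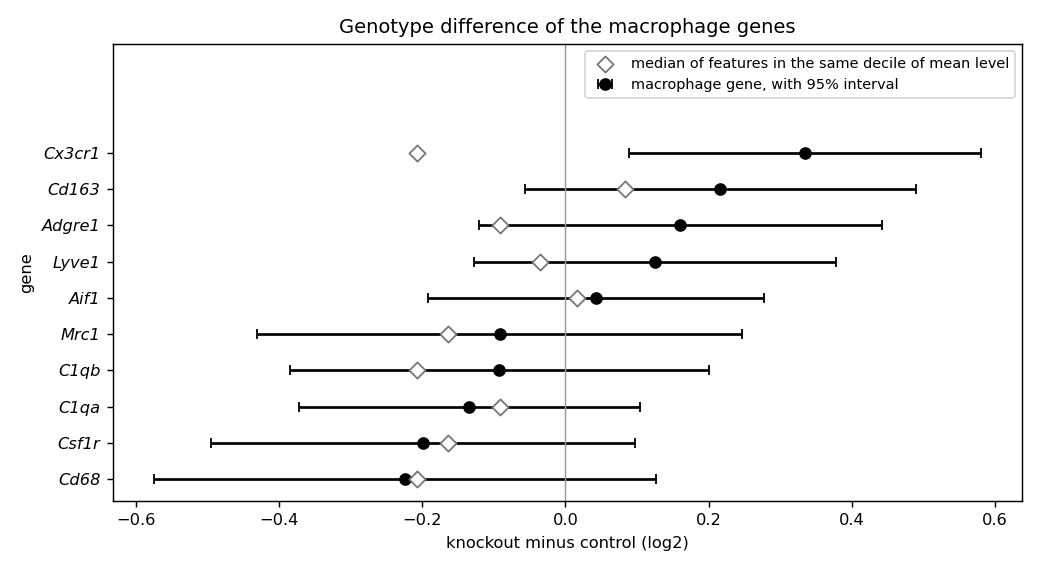
Knockout minus control (log2, horizontal axis) for each of the 10 macrophage genes (vertical axis), as filled points with 95% intervals from limma, beside open diamonds for the median difference of all features in the same decile of mean level. Cx3cr1, at 0.34 beside a decile median of -0.21, is the gene farthest from its diamond, while Csf1r and Cd68 lie next to theirs.

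Because differences followed the mean level, each gene was set beside the features of its own decile. Cx3cr1, in the highest decile, was 0.54 above the decile median, and 97.9% of the features of that decile had a difference at or below it. In that decile, 12.3% of features had a positive difference and 15 of 2353 (0.637%) had all knockout values above all control values. Adgre1 was 0.25 above its decile median, at the 90.9th percentile of its decile. Lyve1 was 0.16, Cd163 0.13, C1qb 0.11, Mrc1 0.073 and Aif1 0.026 above theirs. Csf1r (-0.034), Cd68 (-0.017) and C1qa (-0.043) were below theirs by small amounts. In all, 7 of 10 lay above and 3 below, with a median of 0.094. These percentiles describe the present arrays and carry no test.

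**Figure D3:**
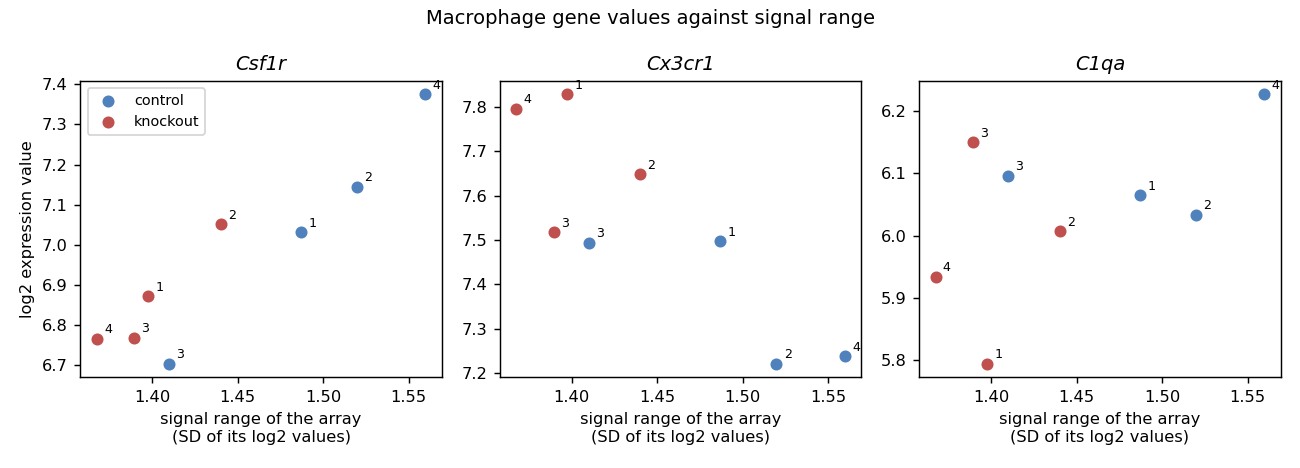
Log2 expression values of Csf1r, Cx3cr1 and C1qa (vertical axes) against array signal range, which is the SD of the log2 values of the features tested (horizontal axis), for control (blue) and knockout (red) arrays with their replicate numbers. Csf1r goes up with signal range (Pearson r = 0.93) and Cx3cr1 goes down (r = -0.84), while C1qa is scattered (r = 0.53).

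One of the 10 genes, Csf1r, was correlated with signal range from array to array at an adjusted p under 0.05 for Pearson r, though not for Spearman rho. The share of all features with such a correlation was not computed, so this count has no background to be read against. Signal range is also computed from the same array values, so it is not independent of them. Signal range was 1.40, 1.44, 1.39 and 1.37 in knockout replicates 1 to 4 and 1.49, 1.52, 1.41 and 1.56 in control replicates 1 to 4. For Csf1r, Pearson r with signal range over the 8 arrays was 0.93 (exact permutation p = 0.000992, adjusted p = 0.00992 over 10 genes) and Spearman rho 0.83 (exact permutation p = 0.0154, adjusted p = 0.154). It was 0.79 without the 2 arrays farthest from the median signal range, and 0.99 within genotype, that is, over deviations from the group means. For Cx3cr1, r was -0.84 (exact permutation p = 0.0103, adjusted p = 0.0515) and rho -0.76 (exact permutation p = 0.0368, adjusted p = 0.184). Cx3cr1 had an r of -0.52 without the 2 farthest arrays and of -0.62 within genotype. None of the remaining 8 genes passed after adjustment. The highest absolute values among them were in Cd163 (r = -0.74, exact permutation p = 0.0413), Lyve1 (r = -0.73, exact permutation p = 0.0386) and Cd68 (r = 0.70, exact permutation p = 0.0559), with adjusted p-values of 0.103, 0.103 and 0.112. Their rho was -0.57, -0.67 and 0.62, and their r without the 2 farthest arrays -0.50, -0.69 and 0.76. Adgre1 showed an r of -0.0090, and of -0.75 without the 2 farthest arrays. C1qb turned as well, from an r of 0.54 to -0.72 without the 2 farthest arrays. Csf1r, Cx3cr1, Cd163, Lyve1 and Cd68 are the 5 genes with the most extreme r. All genes named here were singled out after their values were seen. With signal range as a covariate the differences were 0.22 for Csf1r (adjusted p = 0.866), 0.16 for Cx3cr1 (adjusted p = 0.953), 0.14 for Cd68, 0.055 for Cd163 and -0.056 for Lyve1. Signal range is partly aligned with genotype in these 8 arrays, so the covariate takes part of the genotype difference with it.

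**Figure D4:**
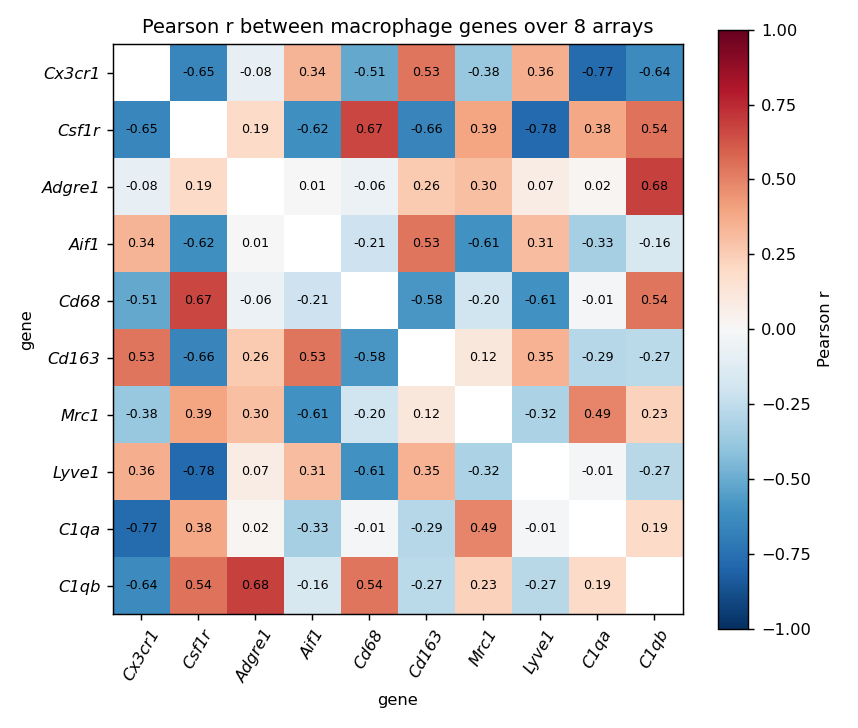
Pearson r over the 8 arrays for each of the 45 pairs of the 10 macrophage genes (both axes list the genes; colour and number give r). Positive and negative values are about equally frequent, from -0.78 for Csf1r with Lyve1 to 0.68 for Adgre1 with C1qb.

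The 10 genes did not vary as a block across animals. Of 45 pairs, 22 had a positive and 23 a negative r, with a median of -0.0080, and 0 passed at an adjusted p of 0.05 (exact permutation, 2 pairs under 0.05 before adjustment). Csf1r and Lyve1 had an r of -0.78 (exact permutation p = 0.0219, adjusted p = 0.498; rho -0.79, exact permutation p = 0.0279, adjusted p = 0.781). That pair had an r of -0.87 without the 2 arrays farthest from the median of Csf1r and of -0.72 within genotype. Cx3cr1 and C1qa had an r of -0.77 (exact permutation p = 0.0221, adjusted p = 0.498; rho -0.69, exact permutation p = 0.0694, adjusted p = 0.781), of -0.42 without the 2 farthest arrays and of -0.67 within genotype. The highest r was 0.68, for Adgre1 with C1qb (exact permutation p = 0.0619, adjusted p = 0.509; rho 0.71, exact permutation p = 0.0576), which was 0.43 without the 2 farthest arrays and 0.90 within genotype. Csf1r and Cd68, both also osteoclast genes, had an r of 0.67 (exact permutation p = 0.0715, adjusted p = 0.509; rho 0.74, exact permutation p = 0.0458), 0.86 without the 2 farthest arrays. The neighbouring genes C1qa and C1qb had an r of 0.19 (exact permutation p = 0.640; rho 0.19, exact permutation p = 0.665), and of -0.048 without the 2 farthest arrays.

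The promoter windows of 3 genes are shown to set those values beside regulatory sequence: Cx3cr1, the gene whose groups did not overlap, and C1qb and Mrc1, the 2 whose window holds a searched motif of PU.1, the transcription factor that specifies the macrophage lineage. RefSeq windows (build GRCm38.p6, 250 bases before to 50 after a gene's start) were matched for 6 of the 10 genes: Cx3cr1, Cd68, Cd163, Mrc1, Aif1 and C1qb. Each stretch below is 100 bases long, 5′ to 3′ on the strand of the gene. Those of Cx3cr1 and C1qb end just before the start, and that of Mrc1 runs from 250 to 151 bases before it, with a motif match in capitals (ACTTCCT, the other strand of AGGAAGT).

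Cx3cr1, chr9:120068297-120068396, minus strand: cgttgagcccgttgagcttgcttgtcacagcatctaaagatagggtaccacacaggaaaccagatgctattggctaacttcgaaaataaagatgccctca
C1qb, chr4:136886201-136886300, minus strand: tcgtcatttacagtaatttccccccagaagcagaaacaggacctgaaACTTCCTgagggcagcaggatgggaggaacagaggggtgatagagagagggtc
Mrc1, chr2:14229164-14229263, plus strand: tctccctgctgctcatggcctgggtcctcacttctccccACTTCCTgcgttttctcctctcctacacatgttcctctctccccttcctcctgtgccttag

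The match begins 53 bases before the start in C1qb and 211 before it in Mrc1. On either strand, AGGAAGT was in 2 of the 6 windows and in 9.35% of all 32851 windows of the table. The longer form GAGGAAGT, which contains it, was in 0 of 6 and in 3.20% of all windows. TGCTGA, a MAF half-site, was in 1 of 6 (C1qb) and in 19.5% of all, and TATAAA in 0 of 6 and in 13.6% of all. These are matches of letters only. C1qb and Mrc1, the genes with AGGAAGT, both differed by -0.092 between genotypes, and both turned positive after cyclic loess. The genes with a window but without it differed by 0.34 (Cx3cr1), -0.22 (Cd68), 0.22 (Cd163) and 0.042 (Aif1). A relation of the motifs to the differences was not tested.

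**Figure D5:**
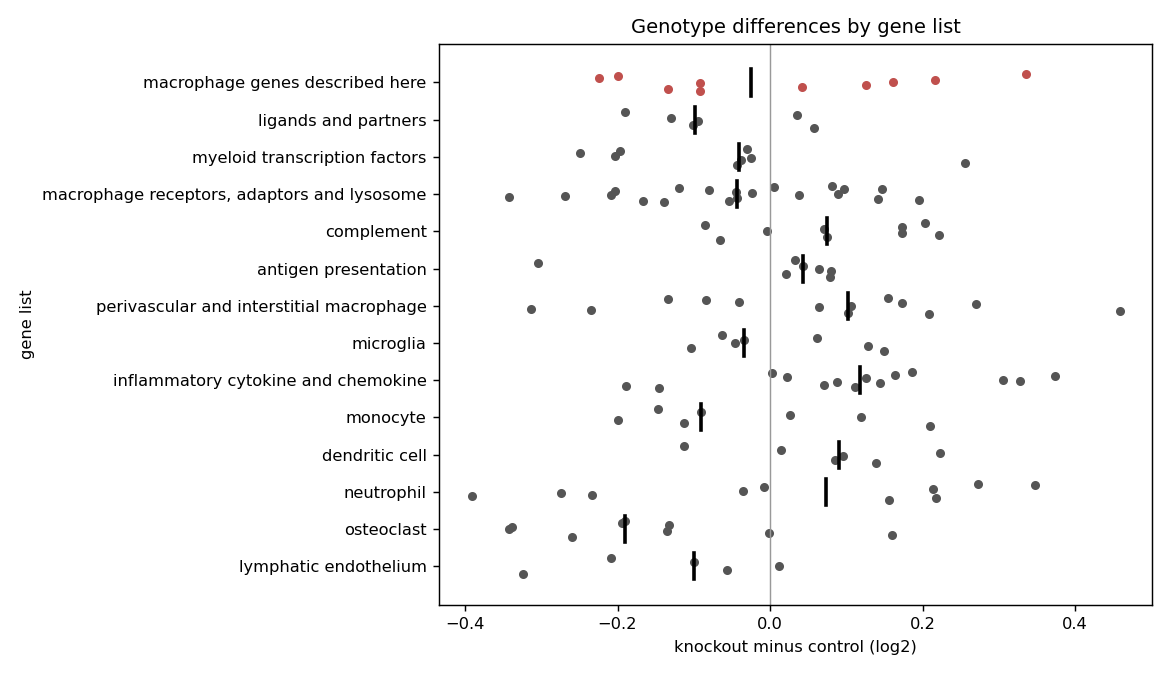
Knockout minus control (log2, horizontal axis) of each measured gene of 14 gene lists (vertical axis), with the median of a list as a black bar and the 10 macrophage genes in red. List medians lie between -0.19 (osteoclast) and 0.12 (inflammatory cytokine and chemokine).

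Other genes of the macrophage programme were read from lists, and 0 of their members were called by limma in either direction. In the list of receptors, adaptors and lysosomal genes, 20 of 20 were measured, with a median of -0.044 (-0.075 to 0.11 over the 21 alternatives), 1 lower and 0 higher at an unadjusted p under 0.05. Its 3 smallest p-values belonged to the lysosomal proteases Lgmn (-0.34, adjusted p = 0.306) and Ctss (-0.21, adjusted p = 0.438), and to Laptm5 (-0.27, adjusted p = 0.384), a lysosomal membrane gene of blood cells. Lgmn and Ctss lay in decile 10 by mean level, where the median difference was -0.21. Laptm5 lay in decile 8, with a median difference of -0.091. Of 9 myeloid transcription factors 8 were measured, with a median of -0.041 (-0.16 without control replicate 3 to 0.13 with signal range as a covariate). The interferon regulatory factor gene Irf8 was at -0.25 (adjusted p = 0.333), and a second, dimmer Irf8 feature read 0.31. Nr1h3, a liver X receptor, was at 0.26 (adjusted p = 0.356) and Maf at -0.20 (adjusted p = 0.442).

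In the list of perivascular and interstitial macrophages, 13 of 14 genes were measured, with a median of 0.10 (-0.041 over its features with a mean of at least 5 to 0.16 without control replicate 3), 1 higher and 2 lower at an unadjusted p under 0.05. The chemokine gene Ccl8 was at 0.46 (adjusted p = 0.301), but was dim, with a mean level of 3.74 in decile 2, where the median difference was 0.14. Gas6, a bridging molecule for dying cells, was at -0.31 (adjusted p = 0.301) with its groups not overlapping, and the growth factor gene Igf1 at -0.24 (adjusted p = 0.342). Over all features, 2.65% had all knockout values below all control values. Gas6 was bright, with a mean level of 7.04 in decile 10, where the median difference was -0.21. In that decile, 21.3% of features had a difference at or below that of Gas6. Igf1 lay in decile 9, with a median difference of -0.16. The complement list without C1q, 9 of 13 measured, had a median of 0.075 (-0.012 with signal range as a covariate to 0.17 over features with a mean of at least 5), with the anaphylatoxin receptor gene C5ar1 at 0.22 (adjusted p = 0.420), the protease gene C1ra at 0.20 (adjusted p = 0.489) and C4b at 0.17 (adjusted p = 0.509). The antigen presentation list, 7 of 8 measured, had a median of 0.043 (-0.020 without control replicate 2 to 0.11 with signal range as a covariate), with the class II gene H2-Ab1 at -0.30 (adjusted p = 0.348), H2-DMa at 0.065 and H2-DMb1 at 0.079 (-0.056 after cyclic loess).

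All 14 inflammatory cytokine and chemokine genes were measured, with 12 positive and 2 negative differences and a median of 0.12. Over the 21 alternatives that median ran from -0.081 with the signal range covariate to 0.18 without control replicate 3. Most of the 14 were dim, in deciles 1 to 5 by mean level, where 63.2% to 79.7% of all features had a positive difference. After repeated quantile normalization 8 were positive and 6 negative (median 0.017), and with signal range as a covariate 4 and 10. Il10, an anti-inflammatory cytokine gene, was at 0.37 (adjusted p = 0.330) with its groups not overlapping. It was dim, with a mean level of 3.98 in decile 2, where 6.08% of features had all knockout values above all control values. The chemokine genes Ccl7 and Ccl4 were at 0.33 (adjusted p = 0.343) and 0.30 (adjusted p = 0.352). The monocyte list had a median of -0.091 (-0.15 without control replicate 1 to 0.20 with signal range as a covariate), with Vcan at -0.20, Ms4a4c at 0.21 and Ly6c2 at -0.15, with adjusted p-values of 0.463, 0.607 and 0.653. The neutrophil list, 10 of 10 measured, had 5 positive and 5 negative differences, a median of 0.074 and a summed level of 12.95 to 13.2 in knockout and 12.8 to 13.2 in control arrays (exact permutation p = 0.229). That median ran from -0.012 without knockout replicate 2 to 0.35 with signal range as a covariate, where all 10 differences were positive. The calgranulin genes S100a9 and S100a8 were at 0.35 (adjusted p = 0.301) and 0.27 (adjusted p = 0.365), and Prtn3, a protease of early granules, was at -0.39 (adjusted p = 0.407).

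The features most like the mean profile of the 10 genes were sought among 7240 features of other genes with a mean of at least 6. The mean centred profile was flat, from -0.086 in control replicate 1 to 0.074 in control replicate 2. The 5 highest Pearson correlations over the 8 arrays, given as a measure of likeness with no test, were 0.97 for a feature each of Syne1 and Polr3k, 0.95 for Cytl1, 0.94 for Rps24 and 0.92 for Adss. Their differences were 0.041, 0.097, -0.043, 0.0090 and 0.079.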

How the data were processed

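Whole cochleae of 8 mice (4 knockout, 4 control; replicates are separate animals, per the labels' protocols) were profiled on arrays. The deposited log2 values are gene-level RMA output that the authors obtained in Affymetrix Expression Console, per the labels; its version and the genome build: not given in the sources used here. Of 41345 features, 23521 had exactly 1 symbol and were tested; for a gene with several, the feature with the highest mean was used. limma 3.58.1 (R 4.3.3; lmFit, eBayes with trend, genotype only) gave differences, SEs, 95% intervals and Benjamini-Hochberg adjusted p-values over all 23521 features. No filter on dim features was applied. Correlations and list levels used exact permutation tests (Python 3.11.15). On simulated data with these features' means and spreads, 4% of 50 features changed by 0.3, 56% by 0.6, 96% by 1 and 100% by 1.5 were called, with 8 false calls. The simulated noise was independent between features and held no shift in signal range, so recovery on the real arrays may be lower. The number of arrays limits the precision. The macrophage genes and all lists were chosen with earlier results of these data known. The naming rule took the 10 genes, their ligands and partners, the deleted locus, and per list the called genes and the 3 smallest p-values; the relation to signal range was added after the values were seen. Alternatives tried included a block on replicate number, other variance settings, scalings and filters, array weights, 3 covariates, the mean over a gene's features, and leaving out each array.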

Additional observations from a re-analysis of the deposited data

Results flagged for a closer look

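In groups of 4 arrays, a single array stood apart from the other 3 by Dixon's gap test at the 95% level in 9 of 162 groups tested over the named genes; about 1 in 20 is flagged by chance. One of these was a macrophage gene. Lyve1 read 5.88 in control replicate 3, and 5.66 to 5.69 in the other control arrays. Irf8 read 6.45 in control replicate 3, against 6.62 to 6.64. Ctss was at 8.13 in knockout replicate 2, with the other knockout arrays at 7.72 to 7.78. Il10 was at 3.43 in control replicate 2, against 3.87 to 3.94, and Flt4 at 6.17 in the same array, against 6.37 to 6.40. Reln was at 6.50 in control replicate 4, against 6.12 to 6.14. Mir183 was at 1.82 in knockout replicate 3, against 2.38 to 2.40, and Mir96 at 4.01 in knockout replicate 1, against 4.26 to 4.31. Adss was at 7.26 in knockout replicate 2, against 7.04 to 7.07.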

How the results depend on the processing

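With 4 animals per group, changes of 0.3 on the log2 scale were rarely called in the simulation. It used noise independent between features, without the shift in signal range of these arrays. On the real arrays Myh4 was not called at -1.67, so the 0 calls among the macrophage genes set no firm limit on larger changes either. The array's background is not known, and dim features such as Cd163 may understate changes. The count of called macrophage genes stayed at 0 in all 21 alternatives. With the replicate number as a block, Cx3cr1 had an adjusted p of 0.271, and 3 features were called over the table; the block changed no call of a named gene. Same-numbered arrays had deviations correlated at 0.057, 0.21, 0.21 and -0.29, and 1 of 4 knockout arrays correlated best with the control array of its own number, so the numbers were not taken as pairs. Features called numbered 1 with all features of the table, with signal range or with muscle level as a covariate, 8 with array weights, 112 with neutrophil level (77 higher), and 1 to 21 when leaving out each array (1 without control replicate 1, 21 without control replicate 3). The median of the 10 genes was -0.092 for the 9 with a mean of at least 5, 0.11 with signal range, 0.070 with muscle level, and -0.045 to 0.048 when leaving out each array. The cause was not tested for any of these or of the following. Mir96 lost its call with all features (-1.48, adjusted p = 0.184), with muscle level (-1.57, adjusted p = 0.0635) and when control replicate 1 was left out (-1.48, with 0.0677 as its adjusted p).

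Signs turned as follows. After repeated quantile normalization they were -0.015 for Aif1, 0.022 for C1qb, -0.027 for Il34, 0.012 for C1qc, 0.047 for Hp, -0.055 for H2-DMb1, -0.031 for Mcpt4 and 0.088 for Cytl1. After cyclic loess they were 0.027 for Mrc1, -0.015 for Aif1, 0.035 for C1qb, -0.023 for Il34, 0.029 for C1qc, 0.059 for Hp, -0.056 for H2-DMb1, -0.0034 for Gpr34, 0.014 for Olfml3, 0.00034 for Ly6c2, 0.0073 for Pecam1, -0.020 for Mcpt4 and 0.12 for Cytl1. With signal range they were 0.22 for Csf1r, 0.14 for Cd68, 0.077 for Mrc1, -0.056 for Lyve1, -0.067 for Aif1, 0.14 for C1qb, -0.12 for Il34, 0.25 for Hp, 0.012 for Maf, -0.16 for C1ra, 0.0070 for H2-Ab1, -0.048 for Ccl7, -0.048 for Ccl4, 0.18 for Ly6c2, -0.11 for Xcr1, -0.010 for Ccr7, 0.070 for Flt3, 0.21 for Prtn3, 0.12 for Atp6v0d2, 0.16 for Kdr, 0.10 for Pecam1, -0.097 for Mcpt4, -0.067 for Cd3d, 0.00062 for Slc4a1, 0.15 for Rhag, 0.17 for Rhd and 0.22 for Cytl1. With muscle level they were 0.052 for C1qb, -0.11 for Il34 and 0.19 for Cytl1. The log2 difference of Rps24 was -0.023 after median-centring, -0.00521 with array weights, -0.0061 with neutrophil level and -0.088 over its features, Syne1 -0.014 with array weights, and Irf8 0.032 over its features. Leaving out each array gave -0.037 to 0.10 for Il34, -0.16 to 0.090 for Cytl1, -0.087 to 0.20 for Syne1, -0.043 to 0.060 for Rps24, -0.023 to 0.32 for Mcpt4, -0.0061 to 0.067 for Aif1, -0.19 to 0.026 for Flt3, -0.19 to 0.030 for C1qb, -0.060 to 0.13 for Hmox1 and -0.22 to 0.0022 for Mrc1.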

Other observations

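Markers of cell types farther from macrophages were read from the same arrays, and none was called by limma. Of 7 B cell markers 6 were measured, with a summed level of 10.1 to 10.4 in knockout and 10.5 to 10.8 in control arrays (exact permutation p = 0.0286, which is the lowest that 4 against 4 arrays allow, and 0.30 adjusted over 21 lists), and with Cd79b at -0.44 (adjusted p = 0.294), Pax5 at -0.52 and Cd79a at -0.39 (adjusted p = 0.301 each). The erythroid list, 5 of 7 measured, had a median of -0.27, which ran from -0.44 without control replicate 3 to 0.17 with signal range as a covariate (exact permutation p = 0.20 for the summed level), with Rhag at -0.45, Slc4a1 at -0.41 and Rhd at -0.27. The skeletal muscle list, 8 of 8 measured, had a summed level of 8.59 to 9.92 in knockout and 9.68 to 11.97 in control arrays (exact permutation p = 0.143) and a median of -0.91 (-0.49 without control replicate 2), with Myh4 at -1.67, Mylpf at -1.30 and Actn3 at -0.90.

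Dendritic cell markers, 6 of 7 measured, had a median of 0.090 (-0.022 with signal range as a covariate to 0.12 without control replicate 3), with Xcr1 at 0.22, Ccr7 at 0.14 and Flt3 at -0.11. Mast cell markers, 6 of 6, had a median of -0.021 (-0.098 with signal range as a covariate to 0.032 without knockout replicate 2), with Fcer1a at 0.19, Kit at -0.12 and Mcpt4 at 0.11 (-0.020 after cyclic loess). The T and NK cell median was 0.057 (-0.067 with signal range as a covariate to 0.080 without control replicate 4), with Cd8a at -0.23, Cd3g at 0.25 and Cd3d at 0.13. Blood endothelium, 7 of 7, had a median of -0.064 (-0.097 without knockout replicate 4 to 0.12 with signal range as a covariate), with Kdr and Cldn5 at -0.17 and Pecam1 at -0.12 (0.0073 after cyclic loess). Of the 12 cochlear cell markers 3 had positive and 9 negative differences, with a median of -0.10 (-0.22 with signal range as a covariate to -0.074 without control replicate 1). Their summed level was 11.5 to 11.9 in knockout and 11.9 to 12.02 in control arrays (exact permutation p = 0.0857). The smallest p-values among them were those of 3 genes with negative differences. Coch was at -0.35, the connexin gene Gjb6 at -0.35 and the potassium channel subunit gene Kcne1 at -0.28, with adjusted p-values of 0.305, 0.309 and 0.350.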
